A study of Mus musculus with 18 samples.

Results

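The genes described here are Kcnk9, Meltf and Star, 3 of the 22180 mouse genes that had a transcript cluster (a set of array probes) of their own. They were selected on measured values: each was higher in islets of db/db mice than of lean KsJ mice at 6 weeks of age, so that difference is given below as a description with no test. The threshold that made the choice was passed by 4 genes, of which the predicted gene Gm5105 is not described further. RNA was taken from handpicked pancreatic islets and measured on Affymetrix Gene ST arrays. One model was the C57BL/KsJ db/db mouse, compared with lean C57BL/KsJ control mice. The other was the C57BL/6J ob/ob mouse, compared with lean C57BL/6J control mice. Both models and their lean controls were sampled at 6 and at 16 weeks, which gave 8 groups of 2 arrays in the larger of 2 value tables. The smaller table added 1 lean KsJ and 1 db/db array at 16 weeks, numbered replicate 3 here. It was deposited under a different array platform from the larger table. The labels state neither the alleles of the lean mice nor how many mice lie behind an array, and they name no treatment. P-values below thus reflect the spread among these arrays alone, which may be technical. One code in the sample titles covers all KsJ arrays of the larger table and another all 6J arrays, so strain, model and title code cannot be told apart.

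As background, the ob mutation removes the hormone leptin and the db mutation removes the signalling form of its receptor, and the study's design sets both obese models against lean mice of the same strain. Kcnk9 encodes TASK-3, an acid-sensitive potassium channel of the K2P family, whose members carry a leak current that holds the membrane potential negative. In beta cells the membrane potential sets calcium entry and thereby insulin release. Meltf encodes melanotransferrin, a relative of the iron carrier transferrin that is held on the cell surface by a lipid anchor. Star encodes the steroidogenic acute regulatory protein, which moves cholesterol to the inner mitochondrial membrane, where Cyp11a1 makes the first steroid from it.

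The promoter of Meltf is shown because the obese arrays of the larger table read above the lean ones for this gene in both models, although no tested difference passed, and it is the only one of the 3 promoters in the RefSeq table used here. The window covers the 250 bases before the Meltf start, chr16:31878560-31878809 on the plus strand of GRCm38.p6, and lies upstream of the first exon. Capitals mark the single match to the core of the cyclic AMP response element, TGACG, which is read on the minus strand and begins 64 bases before the start.

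Meltf promoter: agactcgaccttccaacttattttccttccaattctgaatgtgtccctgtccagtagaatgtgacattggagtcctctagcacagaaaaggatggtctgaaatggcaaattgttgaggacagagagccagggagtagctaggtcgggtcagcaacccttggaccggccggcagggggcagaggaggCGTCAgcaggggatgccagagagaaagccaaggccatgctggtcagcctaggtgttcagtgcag

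Both strands were searched, and 17.77% of 32851 RefSeq promoter windows of the same length held TGACG. The steroidogenic factor motif AAGGTCA, the GATA site AGATAA, the E-box CACGTG and the TATA box TATAAA had no match in this window. They were found in 4.079%, 9.988%, 6.021% and 12.37% of all windows. These matches describe letters only.

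Kcnk9 (cluster 17317801) was highest on the 6-week db/db arrays, lower on the 16-week db/db arrays and dim on most others. Its mean over the 16 arrays lay at percentile 40.1 of all genes, so its level was modest. Its log2 signal in db/db islets was 6.74 and 6.69 at 6 weeks and 4.71 and 5.48 at 16 weeks. In lean KsJ islets it was 2.86 and 3.33 at 6 weeks and 2.89 and 2.75 at 16 weeks. All 4 db/db arrays therefore lay above all 4 lean KsJ arrays. Signals below 2.99, the 30th percentile of the mean over all genes, are called dim here. The ob/ob arrays read 2.94 and 2.60 at 6 weeks and 3.62 and 2.76 at 16 weeks, and the lean 6J arrays 2.85 and 2.38 at 6 weeks and 2.56 and 2.69 at 16 weeks. Of the 12 arrays outside db/db, only 2 were above that level, and their mean was 2.85. The gene thus entered the tests through the db/db arrays alone.

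Ordered by group mean, Kcnk9 stood at 6.72 ± 0.04 (SD, n = 2) in 6-week db/db islets and 5.09 ± 0.54 in 16-week db/db islets. The other 6 groups followed between 3.19 and 2.61, and each overlapped its neighbour in the order. The 6-week difference that chose the gene was 3.62 on the log2 scale, at least 11.8-fold when the lean array below the dim level is set to that level. Within db/db islets the mean was 1.62 lower at 16 than at 6 weeks, a difference given without a test because it uses the arrays of the choice.

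**Figure D1:**
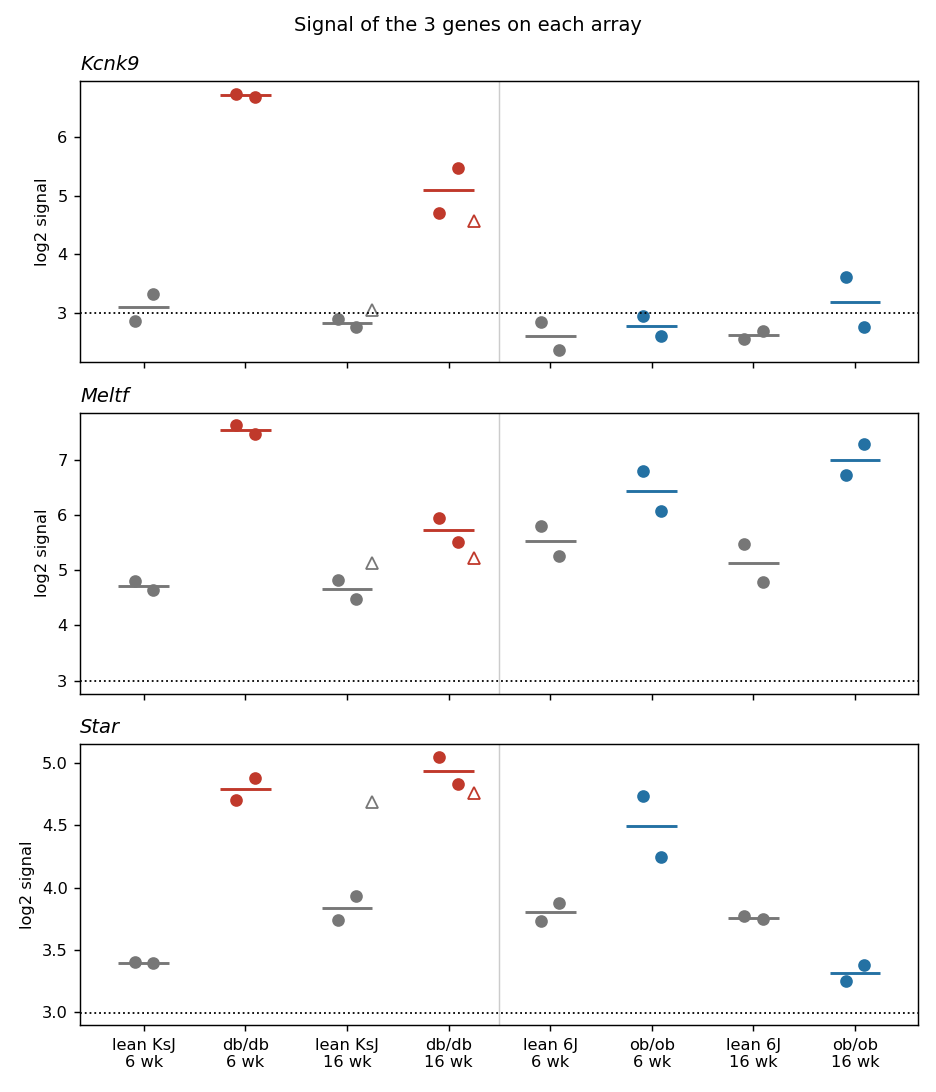
Log2 signal of Kcnk9, Meltf and Star (vertical axes) on each array of the 8 groups (horizontal axis). Filled circles are arrays of the larger table and bars their group means, open triangles are the 2 arrays of the smaller table, and the dotted line is the dim level of 2.99. Kcnk9 is high on the db/db arrays, Meltf on the 6-week db/db and both ages of ob/ob arrays, and Star on the db/db and 6-week ob/ob arrays.

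At 16 weeks Kcnk9 rose in db/db islets by 2.27 ± 0.32 on the log2 scale (SE, adjusted p = 0.0112, limma with Benjamini-Hochberg adjustment over 15526 genes). Since both lean arrays were dim, this is at least 4.29-fold. None of the 4 compared arrays entered the 6-week difference of the choice. The variance in this and the other tests came from all 16 arrays, however, and also entered the choice of the genes. These tests are thus not fully independent of the choice. The gene passed the filter on dim genes only through the db/db arrays, where it is high; with no filter the difference was 2.27 ± 0.32 (adjusted p = 0.0124, limma). Both db/db arrays lay above both lean arrays. In this comparison 5.80% of all genes tested were called, 826 higher and 74 lower, and the median gene was 0.18 higher in db/db islets, so a call by itself was not rare. The split depended on the scaling, with 126 higher and 137 lower after median centring and 232 higher and 51 lower after quantile normalization. It also rested on single arrays: the 900 calls became 4687 without lean KsJ replicate 1, 118 without lean KsJ replicate 2, 103 without db/db replicate 1 and 43 without db/db replicate 2. The Kcnk9 call was lost without db/db replicate 2 (1.89, adjusted p = 0.0570). It was also lost with array weights (adjusted p = 0.288) and with only the 4 compared arrays in the fit (adjusted p = 0.232).

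The replicate 3 pair of the smaller table, which was not tested, read 3.06 in lean KsJ and 4.56 in db/db islets for Kcnk9. The difference of 1.51 was larger than that of 97.5% of the genes, while the median gene differed by 0.09. Levels in this table are not comparable with those in the larger one, since the 2 were deposited under different array platforms. The sources used here also do not say how the 2 were scaled to each other. The 2 arrays of the pair also differed in means of cell type markers. Enterocyte markers had 4.27 in lean KsJ and 9.40 in db/db islets, and acinar markers 12.06 and 10.95. Islet endocrine markers had 10.05 and 9.90. The part of these cells in the differences of the pair was not tested.

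In ob/ob islets Kcnk9 did not pass the test. At 6 weeks it differed from lean 6J islets by 0.16 ± 0.32 (95% interval -0.55 to 0.86, adjusted p = 0.955, limma), with all 4 arrays dim, and 0% of genes were called, although 955 had an unadjusted p below 0.05. That small difference turned negative, to -0.25, without the 3 arrays doubted in earlier results and named below. It was -0.08 without lean 6J replicate 2 and -0.01 without ob/ob replicate 1. At 16 weeks the ob/ob mean was 0.57 ± 0.32 higher (95% interval -0.14 to 1.27, adjusted p = 0.413, limma), with both ob/ob arrays above both lean arrays, and 0.0708% of genes were called. The difference rested on ob/ob replicate 1 and was 0.14 without it.

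Meltf (cluster 17324695) was above the dim level on all 16 arrays and was high in both obese models. In db/db islets its log2 signal was 7.62 and 7.47 at 6 weeks and 5.94 and 5.51 at 16 weeks. In lean KsJ islets it was 4.81 and 4.64 at 6 weeks and 4.83 and 4.49 at 16 weeks. The ob/ob arrays read 6.79 and 6.08 at 6 weeks and 6.73 and 7.28 at 16 weeks. Lean 6J islets had 5.80 and 5.25 at 6 weeks and 5.48 and 4.79 at 16 weeks. At each age and in each model, both obese arrays lay above both lean arrays.

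The order of the Meltf group means was 6-week db/db (7.55), 16-week ob/ob (7.0), 6-week ob/ob (6.44), 16-week db/db (5.73), 6-week lean 6J (5.53), 16-week lean 6J (5.14), 6-week lean KsJ (4.72) and 16-week lean KsJ (4.66). The arrays of 6-week db/db and 16-week ob/ob did not overlap, nor did those of 6-week ob/ob and 16-week db/db. All other neighbours in the order overlapped. The difference that chose Meltf was 2.82, or 7.08-fold. In db/db islets the mean was 1.82 lower at 16 than at 6 weeks, whereas in ob/ob islets it was 0.57 higher; neither difference was tested.

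At 16 weeks Meltf did not pass the test in db/db islets, where it was 1.07 ± 0.32 higher (95% interval 0.36 to 1.78, adjusted p = 0.0783, limma). It passed without lean KsJ replicate 1 (1.24, adjusted p = 0.0385) and with each array centred on its median over all clusters (1.26, adjusted p = 0.0346), a setting chosen after seeing the data. The replicate 3 pair read 5.12 in lean KsJ and 5.22 in db/db islets, a difference of 0.10 that was close to the 0.09 of the median gene. The 2 tables thus differed in what they showed for Meltf at 16 weeks.

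In ob/ob islets at 16 weeks Meltf was 1.87 ± 0.32 higher than in lean 6J islets, or 3.65-fold (95% interval of the log2 difference 1.16 to 2.58), and missed the threshold narrowly (adjusted p = 0.0564, limma). Among all genes it ranked 30th by p-value, and 11 genes were called. No single compared array left out brought it past the threshold: the difference was then 1.52 to 2.21, with adjusted p-values of 0.142 to 0.376 (limma). It did pass without either 6-week ob/ob array (adjusted p = 0.0187) and without either 16-week lean KsJ array (adjusted p = 0.0358), none of which belongs to the comparison, and with only the 4 compared arrays in the fit (adjusted p = 0.0376). At 6 weeks the ob/ob mean was 0.91 ± 0.32 higher (95% interval 0.20 to 1.62, adjusted p = 0.791, limma; unadjusted p = 0.0168). Without the 3 arrays doubted in earlier results, which leaves 1 array a group, this was 0.28. It was 0.55 without ob/ob replicate 1 alone.

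Star (cluster 17500195) read above its lean controls in db/db islets at both ages and in ob/ob islets at the younger age alone, by its array values. Its mean over the 16 arrays lay at percentile 45.0 of all genes, so its level was modest. Its log2 signal in db/db islets was 4.71 and 4.88 at 6 weeks and 5.05 and 4.83 at 16 weeks. In lean KsJ islets it was 3.40 and 3.39 at 6 weeks and 3.74 and 3.93 at 16 weeks. The ob/ob arrays read 4.74 and 4.25 at 6 weeks and 3.24 and 3.38 at 16 weeks, and the lean 6J arrays 3.73 and 3.88 at 6 weeks and 3.77 and 3.74 at 16 weeks. The 16-week ob/ob arrays were the lowest of all 16, and both lay below both lean arrays of their age.

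In the order of Star means, 16-week db/db (4.94), 6-week db/db (4.79) and 6-week ob/ob (4.49) overlapped. A gap separated them from 16-week lean KsJ (3.84), 6-week lean 6J (3.80) and 16-week lean 6J (3.76), which overlapped among themselves. The 6-week lean KsJ (3.39) and 16-week ob/ob (3.31) groups lay lower still and did not overlap. The difference that chose Star was 1.40, or 2.64-fold, the smallest of the 3. Its db/db mean was 0.15 higher at 16 than at 6 weeks, while the lean KsJ mean was 0.44 higher.

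At 16 weeks Star rose in db/db islets by 1.10 ± 0.19, or 2.15-fold (95% interval of the log2 difference 0.70 to 1.51, adjusted p = 0.0164, limma). The call was lost without db/db replicate 1 (0.995, adjusted p = 0.0789) or replicate 2 (1.21, adjusted p = 0.0580), and after median centring (0.76, adjusted p = 0.0786). It was also lost with array weights (adjusted p = 0.288) and with only the 4 compared arrays in the fit (adjusted p = 0.447). The replicate 3 pair read 4.69 in lean KsJ and 4.76 in db/db islets, a difference of 0.07 against 0.09 for the median gene. For Star, as for Meltf, the smaller table did not show the difference seen in the larger one. It compares 1 array with 1, and these differed in marker means as given above.

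In ob/ob islets Star did not pass the test at either age. It was 0.69 ± 0.19 higher at 6 weeks (95% interval 0.28 to 1.10, adjusted p = 0.791, limma; unadjusted p = 0.00335). Without ob/ob replicate 1 this was 0.45 and without replicate 2 it was 0.93. At 16 weeks it was 0.45 ± 0.19 lower than lean, a log2 difference of -0.45 (95% interval -0.85 to -0.04, adjusted p = 0.263, limma). Both 6-week ob/ob arrays were above both lean arrays, and both 16-week ones were below.

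**Figure D2:**
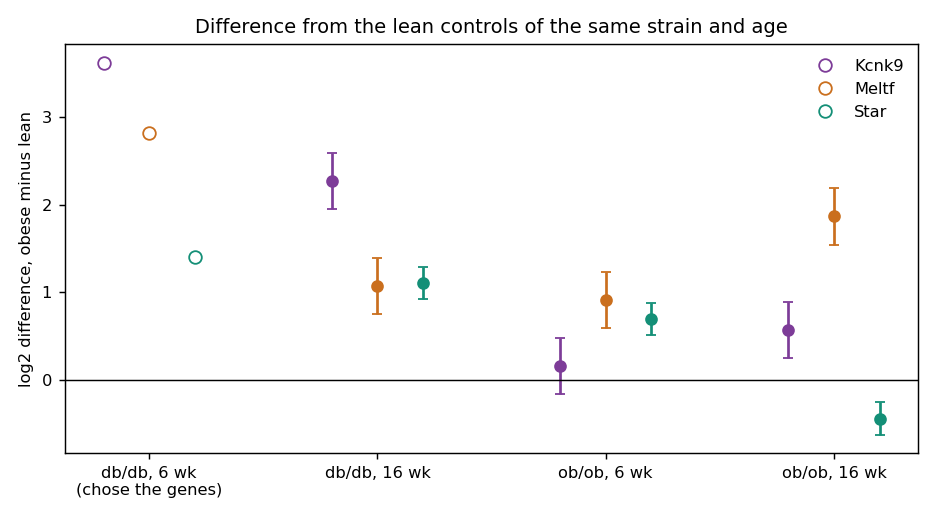
Log2 difference between obese and lean islets of the same strain and age (vertical axis) for each model and age (horizontal axis). Filled points are tested differences with bars of 1 SE, and open points are the 6-week db/db differences that chose the genes, shown without error. Kcnk9 stands at 2.27 in 16-week db/db and at 0.16 and 0.57 in ob/ob islets, Meltf at 1.87 in 16-week ob/ob islets, and Star at 0.69 and -0.45 in ob/ob islets at 6 and 16 weeks.

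The difference between the models was tested directly at 16 weeks, as the db/db difference from lean minus the ob/ob difference from lean. It was 1.70 ± 0.45 for Kcnk9 (adjusted p = 0.169, limma), 1.55 ± 0.26 for Star (adjusted p = 0.0782, limma) and -0.80 ± 0.46 for Meltf (95% interval -1.80 to 0.21, adjusted p = 0.396, limma). None passed, in a comparison where 0.0129% of genes were called. Kcnk9 (adjusted p = 0.0338) and Star (adjusted p = 0.0070) did pass without lean KsJ replicate 1, where 3730 genes in all were called against 2 with every array. At 6 weeks the same differences were 3.47 for Kcnk9, 1.92 for Meltf and 0.71 for Star, given without a test.

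The change of the ob/ob difference with age was 0.41 ± 0.45 for Kcnk9, 0.96 ± 0.46 for Meltf and -1.14 ± 0.26 for Star, all with an adjusted p of 0.9998 (limma). Here too 0% of genes were called, and 430 of all 15526 had an unadjusted p below 0.05. Star ranked 8th of 15526 genes by p-value, at an unadjusted p of 0.00118. Age and sex cannot be told apart in the ob/ob arrays, as the Uty values below show. In db/db islets the matching change was -1.35 for Kcnk9, -1.76 for Meltf and -0.29 for Star, untested because the 6-week arrays chose the genes.

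Just inside the threshold of the choice lay Star (adjusted p = 0.0416 in the fit that chose it), and just outside lay the chemokine gene Ccl28 (log2 difference 1.97), Trnp1 (1.53) and Shisa2 (1.84), each with an adjusted p of 0.137. Only 0.0258% of genes were called in that comparison, a share from which nothing is read here. At 16 weeks the db/db differences of these outside genes were 3.09, 2.36 and 1.39, beside 1.10 for Star just inside it.

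The K2P potassium channels gave 10 genes to test beside Kcnk9. Kcnk7 and Kcnk18 were dim, and Kcnk3, which encodes the closest relative TASK-1, had no cluster of its own. In 16-week db/db islets 1 of the 10 rose, none fell and 9 did not pass, with a median difference of 0.51 against 0.18 over all genes. Over all genes tested 5.80% were called, so 1 of 10 is near the background. The riser was Kcnk16, the beta-cell channel TALK-1, at 11.54 and 11.48 in db/db against 10.88 and 10.14 in lean islets (1.0 ± 0.24, adjusted p = 0.0363, limma). The lower lean value came from replicate 2, the array with the highest acinar markers, and without it the difference was 0.63 (adjusted p = 0.124, limma). The call was also lost after median centring (0.66, adjusted p = 0.106, limma) and without either db/db array (adjusted p = 0.144 and 0.125, limma). At 6 weeks Kcnk16 differed by 0.11. Kcnk1, which encodes TWIK-1, was higher in obese islets in all 4 comparisons with lean without passing the test: by 1.15 ± 0.36 in 16-week db/db islets (adjusted p = 0.0861, limma), by 0.98 in 6-week db/db islets, and by 0.82 and 0.93 in ob/ob islets at 6 and 16 weeks. In each of the other 4 tested comparisons 0 of the 10 were called (limma), with 1 and 2 below an unadjusted p of 0.05 in ob/ob islets at 6 and 16 weeks, 0 for the model difference and 2 for the ob/ob change with age.

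Of the proteins that share the lipid-binding START domain with Star, 14 were tested and 0 were called in any of the 5 tested comparisons (limma). At an unadjusted p below 0.05 there were 1 in 16-week db/db, 1 in 6-week ob/ob and 3 in 16-week ob/ob islets, 2 for the model difference and 0 for the ob/ob change with age. The median difference in 16-week db/db islets was 0.07 against 0.18 over all genes. Stard4, a cholesterol carrier of the cytosol, had lower group means in obese islets, with differences of -0.97 in 6-week and -0.29 in 16-week db/db islets and of -0.60 and -0.80 in ob/ob islets at 6 and 16 weeks, with no tested difference past the threshold. In 16-week db/db islets it read 5.02 and 5.24 against 5.90 and 4.94 in lean KsJ islets, so the arrays overlapped, and without lean KsJ replicate 1 the difference was 0.19.

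Steroid synthesis and cholesterol supply gave 21 genes to test beside Star, and 0 were called in any tested comparison (limma), with 4 below an unadjusted p of 0.05 in 16-week db/db islets, 2 in ob/ob islets at each age, 3 for the model difference and 0 for the change with age. Their median there was 0.15. Another 9 were dim, among them the adrenal enzymes Cyp11b1, Cyp11b2 and Cyp21a1 and the 3 genes Hsd3b1, Hsd3b2 and Hsd3b6. Cyp11a1, which acts on the cholesterol that Star delivers, had mean log2 signals of 3.77 in db/db and 4.27 in lean KsJ islets at 16 weeks (-0.50 ± 0.36, adjusted p = 0.417, limma). The lean mean rested on replicate 1 (4.84, against 3.70 on replicate 2), and without it the difference was 0.07. Tspo, an outer mitochondrial membrane protein that binds cholesterol, differed by 0.52 ± 0.25 (adjusted p = 0.233, limma). Neither passed the threshold. Cyp17a1, the steroid 17-hydroxylase, named here after its values were seen, had the largest difference of the list. It read 5.73 and 5.66 in 16-week db/db against 3.60 and 3.36 in lean KsJ islets (2.21 ± 0.72, adjusted p = 0.0954, limma), and 5.12 and 4.99 in 16-week ob/ob against 3.37 and 3.17 in lean 6J islets (1.79 ± 0.72, adjusted p = 0.252, limma). At 6 weeks its arrays were spread, at 4.18 and 6.12 in db/db and 5.53 and 2.90 in ob/ob islets, with differences from lean of 1.77 and 0.84. Its 16-week db/db difference passed with both tables joined (2.10, adjusted p = 0.0307, limma) and without either 6-week ob/ob array (adjusted p = 0.0301, limma).

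Among genes of the transferrin family and iron handling, 24 were tested beside Meltf. In 16-week db/db islets 3 of the 24 rose, none fell and 21 did not pass, beside 5.80% of all genes called, mostly higher (826 against 74 lower). Their median was 0.29 against 0.18 over all genes. The risers were Hmox1, which encodes the haem-degrading enzyme haem oxygenase 1 (1.40 ± 0.34, adjusted p = 0.0413), Slc25a37, the mitochondrial iron importer mitoferrin 1 (1.25 ± 0.26, adjusted p = 0.0268), and Steap1, of the metalloreductase family (1.45 ± 0.35, adjusted p = 0.0396, limma). Without lean KsJ replicate 2 none of these calls held, at 1.20 for Hmox1 (adjusted p = 0.145), 0.90 for Slc25a37 (adjusted p = 0.0991) and 1.56 for Steap1 (adjusted p = 0.0916, limma). Without db/db replicate 1 all were lost too, with Hmox1 at 0.76, and after median centring likewise. In the ob/ob comparisons 0 were called (limma), with 0 and 3 below an unadjusted p of 0.05 at 6 and 16 weeks, and neither test between differences called any, with 5 and 0 below it. Tfrc, the transferrin receptor, was lower in obese islets in each comparison without passing, by -0.86 in db/db islets at both ages and by -0.32 and -0.64 in ob/ob islets at 6 and 16 weeks. Slc40a1, which encodes the iron exporter ferroportin, differed by -0.36 in 16-week db/db and -0.93 in 16-week ob/ob islets and did not pass.

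**Figure D3:**
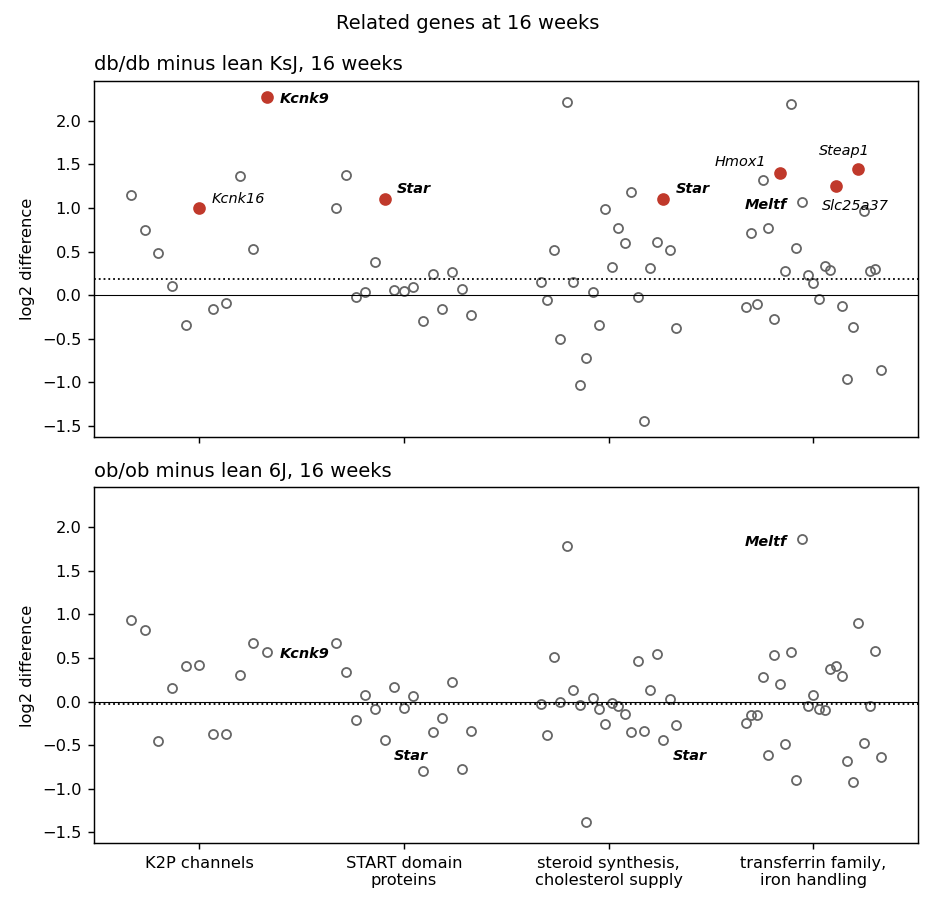
Log2 difference between obese and lean islets at 16 weeks (vertical axes) for each tested gene of the 4 lists (horizontal axis), with db/db above and ob/ob below. Red filled points were called at an adjusted p below 0.05, open points were not, the dotted line is the median of all genes (0.18 in db/db and -0.03 in ob/ob islets), and Kcnk9, Meltf and Star are labelled in bold. In db/db islets Kcnk9 lies above all other K2P channels, and Meltf is the highest of its list in ob/ob islets.

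The genes on either side of each member in the gene table were read beside it at 16 weeks. For Kcnk9 the neighbours were Col22a1 (-0.27 in 16-week db/db islets) and Trappc9 (-0.48), for Meltf Dlg1 (0.03) and 0610012G03Rik (0.56), and for Star Lsm1 (0.38) and Ash2l (0.30). None of these passed the test in any of the 3 comparisons of obese with lean islets.

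The 5 genes most like each member were taken by Pearson correlation over the 16 arrays, among genes tested and without predicted genes. These correlations share arrays, groups and cell makeup and are given as a description. Kcnk9 was followed by Mfge8 (0.91), a secreted bridge for uptake of dying cells, Mgp (0.89), the matrix Gla protein, Fcrls (0.86), Nab2 (0.85) and Rin3 (0.85). Meltf was followed by Eif5a (0.93), a translation factor, Dapl1 (0.88), Sod3 (0.88), the extracellular superoxide dismutase, Nucb1 (0.88) and E2f2 (0.87). Star was followed by Ildr2 (0.84), Csn3 (0.82), a casein, Guca1a (0.81), Plaur (0.81), the urokinase receptor, and Inpp5f (0.81).

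The sizes of change differed within these sets. The sets were picked by correlation over the same arrays, so a group pattern shared with the member follows from the picking. Mfge8 was 1.37 higher in 6-week and 1.45 higher in 16-week db/db islets, where Kcnk9 was 3.62 and 2.27 higher. Dapl1 was 3.01 higher in 16-week db/db and 3.26 higher in 16-week ob/ob islets, and Sod3 1.5 and 2.62 higher, so both shared with Meltf a 16-week difference that was larger in ob/ob islets, by values not tested against db/db islets. Csn3 was 3.51 and 3.83 higher in db/db islets at 6 and 16 weeks, and Ildr2 1.45 and 2.03 higher. No gene in the Star set differed from lean 6J as far downward in 16-week ob/ob islets as Star (-0.45). Ildr2 differed by -0.12 there and Csn3 by 0.93.

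**Figure D4:**
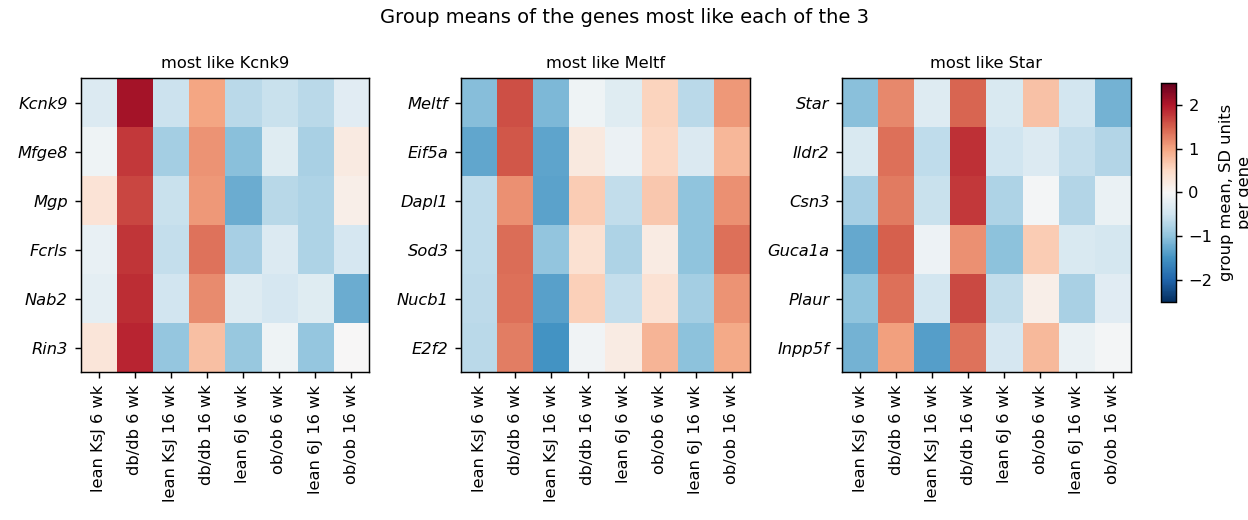
Group means of each of the 3 genes (top row of each panel) and of the 5 genes most like it, by group (horizontal axis). Colour gives the mean of 2 arrays in SD units around the gene's own mean over the 8 groups, red high and blue low. The Kcnk9 set is highest in 6-week db/db islets, the Meltf set in 6-week db/db and 16-week ob/ob islets, and the Star set in db/db islets of both ages. The sets were picked by correlation over these arrays, so this likeness follows from the picking.

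The arrays carried the label's tissue, with Ins2 between 11.60 and 12.20 and Gcg between 13.09 and 13.48 on all 16. The pairwise correlation within groups spanned 0.916 in 16-week lean KsJ to 0.980 in 16-week lean 6J islets, and array medians from 3.51 to 3.83. In earlier results 3 arrays were doubted: lean KsJ 16-week replicate 2, lean 6J 6-week replicate 2 and ob/ob 6-week replicate 1. The first had an acinar marker mean of 12.20 against 9.18 on replicate 1. The second had an enterocyte marker mean of 10.80 against 4.20 on replicate 1. For the third no value given here shows the reason, and the 2 arrays of its group correlated at 0.970. Without these 3 arrays the 16-week db/db differences were 2.20 for Kcnk9, 0.90 for Meltf and 1.20 for Star.

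Markers of other cells moved with the 16-week db/db comparison in which Kcnk9 and Star rose. Of 12 stellate and fibroblast markers all 12 had a difference above 0, with marker means of 5.87 and 6.99 in db/db against 4.73 to 4.87 in lean KsJ islets. The 12 macrophage markers were all above 0 as well, with means of 6.03 to 6.50 against 4.86 to 5.29. Of all genes tested 65.7% were above 0 in this comparison, and that share depends on the scaling. All 10 endothelial markers tested were above 0 too, but only 4 of 16 acinar and 2 of 5 lymphocyte markers. The enterocyte list had means of 6.38 and 9.11 in db/db and 4.20 and 5.73 in lean islets. Their part in the differences of Kcnk9, Meltf and Star was not tested. At 6 weeks, where the 3 genes were chosen, the stellate list ranged from 6.01 to 6.40 in db/db and 5.71 to 6.15 in lean KsJ islets, and the macrophage list from 5.76 to 5.82 and 5.56 to 5.88. The acinar, goblet, lymphocyte and neuron lists overlapped too. Enterocyte means were higher in db/db islets (4.46 to 5.03 against 4.15 to 4.17), as were ductal means (6.52 to 7.05 against 6.39 to 6.48). Endothelial and melanocyte means were also higher. Islet endocrine means were lower (10.97 to 11.10 against 11.16 to 11.19). The part of these cells was not tested. The enterocyte list stood highest on lean 6J 6-week replicate 2, at 10.80. In bulk islets, a change in the number of cells of a type and in RNA per cell cannot be told apart.

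Star marks adrenal and gonadal cells, so their markers were read beside it. The list of steroid-making cells averaged 2.33 to 2.83 on all 16 arrays. In it 7 of 10 genes were dim, and Cyp11b1 lay between 1.51 and 2.51 and Cyp21a1 between 1.74 and 2.35. Cyp17a1 is a member of this list and was not dim. The list mean was higher in obese than in lean islets of each model and age: 2.68 to 2.74 against 2.51 to 2.56 in 6-week db/db, 2.80 to 2.82 against 2.66 to 2.74 in 16-week db/db, 2.70 to 2.83 against 2.33 to 2.46 in 6-week ob/ob, and 2.78 to 2.79 against 2.37 to 2.45 in 16-week ob/ob islets. This did not hold gene by gene. Of the 3 genes tested, only Cyp17a1 had a difference above 0 in 16-week db/db islets (2.21), with Cyp11a1 at -0.50 and Nr5a1 at -0.02. In 6-week db/db islets these differences were 1.77, -0.09 and -0.14. In ob/ob islets 2 of the 3 were above 0 at each age. The part of steroid-making cells in the Star values was not tested. Acinar markers moved with the 16-week ob/ob comparison of Meltf: all 16 had a difference above 0, beside 47.5% of all genes tested. The acinar means were 8.97 to 9.49 in ob/ob and 7.65 to 8.23 in lean 6J islets. The part of acinar cells in the Meltf difference was not tested.

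Arrays of both sexes were present. The Y-linked gene Uty lay between 7.25 and 7.86 on 5 arrays, 1 each of 6-week lean KsJ, 16-week lean KsJ and 6-week lean 6J and both of 6-week ob/ob, and at 3.60 or below on the other 11. None of the db/db arrays was among the 5. The 6-week db/db difference that chose the genes thus set arrays without the Uty signal against a lean pair with 1 of each kind. In the 3 lean groups that held 1 array of each kind, the arrays differed by 0.14 to 0.47 for Kcnk9, 0.17 to 0.55 for Meltf and 0.01 to 0.19 for Star. With the level of Xist as a covariate the 16-week db/db differences were 2.28 for Kcnk9 (adjusted p = 0.0136, limma), 1.21 for Meltf (adjusted p = 0.0505, limma) and 1.04 for Star (adjusted p = 0.0185, limma). The 6-week ob/ob differences with this covariate were 0.15 for Kcnk9, 0.73 for Meltf and 0.77 for Star. Without it they were 0.16, 0.91 and 0.69, and none passed in either fit. All arrays of the 16-week ob/ob comparison lacked the Uty signal. Both 6-week ob/ob arrays had it, so in ob/ob islets age and sex cannot be told apart. This holds for the changes with age of Kcnk9, Meltf and Star in ob/ob islets.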

How the data were processed

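Both tables hold log2 signals per transcript cluster as deposited by the authors. Per the submitters' processing notes, the tools were MAS5, RMA and Partek; the sources used here give no version, role or order for them. Of 41034 clusters, 23521 had 1 gene in the platform annotation, and Entrez IDs gave 23328 of these a current symbol. The cluster of highest mean was kept per gene (22180 genes), and each of the 3 genes described had 1 cluster. Genes with a mean below the 30th percentile (log2 2.99) were left out, which left 15526. A linear model with 1 mean for each group was fitted to the 16 arrays of the larger table (limma 3.58.1, R 4.3.3, eBayes, 8 residual degrees of freedom). P-values are two-sided, adjusted by the Benjamini-Hochberg method over all genes tested, with calls below 0.05. The smaller table entered 1 alternative only, since its scaling to the larger one is not stated.

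The members, gene lists, motifs and tests were chosen with earlier results of these data known. Genes named are the members, the 5 most like each, every called list member, 9 further list members, the 3 genes next after the called ones at 6 weeks, and neighbours in the GRCm38.p6 RefSeq gene table, added later. The Meltf promoter comes from RefSeq. Kcnk9 and Star were not in that promoter table. The number of arrays limits the precision. Alternatives covered filters, scaling, variance models, array weights, joined tables, Xist and left-out arrays. Figures used matplotlib 3.10.9 in Python 3.11.15.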

Additional observations from a re-analysis of the deposited data

Results flagged for a closer look

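Star differed in direction between the models at 16 weeks and between the ages in ob/ob islets, by its array values. At 16 weeks both db/db arrays of the larger table lay above both lean KsJ arrays, whereas both ob/ob arrays lay below both lean 6J arrays. The difference between these effects was 1.55 on the log2 scale, and its interaction test did not pass (adjusted p = 0.0782, limma). In ob/ob islets both arrays lay above lean at 6 weeks and below lean at 16 weeks, a change of -1.14 that did not pass either (adjusted p = 0.9998, limma). Both 6-week ob/ob arrays carried the Uty signal and no 16-week ob/ob array did. Age and sex thus cannot be told apart in this change. In the 16-week replicate 3 pair, Star was 0.07 higher in db/db than in lean KsJ islets, against 0.09 for the median gene. How many of all genes show such a pattern was not counted.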

How the results depend on the processing

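The 5 tested comparisons of Kcnk9, Meltf and Star kept their direction under all alternatives except for the small Kcnk9 differences in ob/ob islets. At 6 weeks that difference was -0.25 without the 3 doubted arrays and from -0.078 (without lean 6J replicate 2; -0.014 without ob/ob replicate 1) to 0.40 with single arrays left out. The change of the Kcnk9 ob/ob difference with age ran from -0.018 (without 16-week ob/ob replicate 1) to 0.83. No paired analysis was possible because the labels give no replicate numbers that pair arrays. Kcnk9 and Star fell below a filter at the 50th percentile and have no value there.

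With array weights and with the compared groups alone, the 16-week db/db calls of Kcnk9 (2.27) and Star (1.10) were lost, and Star also lost its call after median centring (0.76). With single arrays left out, these differences ranged from 1.89 to 2.65 for Kcnk9, 0.85 to 1.28 for Meltf and 0.995 to 1.21 for Star. Meltf was called there with centring on all clusters (1.26), an alternative chosen after seeing the data. In 16-week ob/ob islets Meltf was called, at the same 1.87, with the 50th percentile filter (adjusted p = 0.0465), trend and robust eBayes (0.0432), array weights (0.00227), the compared groups alone (0.0376), joined tables (0.0448) and the 3 doubted arrays left out (0.0113), and ranged from 1.52 to 2.21 with single arrays left out. Star was called there with array weights (-0.45, adjusted p = 0.0281). The model differences at 16 weeks, with single arrays left out, ranged from 1.28 to 2.13 for Kcnk9 and -1.15 to -0.45 for Meltf. For Star they ranged from 1.44 to 1.66. Under the other settings they ranged from 1.31 to 1.93 for Kcnk9, -1.19 to -0.61 for Meltf and 1.16 to 1.69 for Star. With single arrays left out, the 16-week db/db difference ranged from -0.77 to 0.19 for Stard4 and from -1.08 to 0.069 for Cyp11a1. Of the list genes called in 16-week db/db islets, examined under these settings after seeing the data, Kcnk16 lost its call under 17 of 29, Hmox1 under 16 of 29, Steap1 under 13 of 28 and Slc25a37 under 8 of 29.

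Counts of called genes moved far more than the members' values. For 16-week db/db they were 900 as reported, 283 with quantile normalization, 263 with median centring, 2011 with centring on all clusters, 500 without moderation, 0 with array weights, 6 with the compared groups alone, 2084 with joined tables and 1574 with Xist, and 43 to 4687 with single arrays left out. For 16-week ob/ob they were 11, and 34 with the 50th percentile filter, 50 with trend and robust eBayes, 2969 with array weights, 1293 with the compared groups alone, 107 with joined tables, 20 with Xist, 1184 without the 3 doubted arrays, 0 with quantile normalization, with centring on all clusters and without moderation, and 0 to 328 with single arrays left out. For the 16-week model difference they were 2, and 16 with the 50th percentile filter, 9 with trend and robust eBayes, 4 without moderation, 46 with joined tables, 0 with no filter, quantile normalization, median centring, array weights, the compared groups alone or Xist, and 0 to 3730 with single arrays left out. The 6-week ob/ob count of 0 ranged up to 321 and that of the ob/ob change with age from 0 to 158, with 3 without the 3 doubted arrays. The cause of these changes was not tested. With 2 arrays a group, an array left out leaves a lone array that is assumed to vary like the other groups.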
